A study of Mus musculus with 6 samples.

Results

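The keratin genes of the mouse were followed in the accessible chromatin of untreated embryonic stem cells. The 53 protein-coding RefSeq genes on GRCm38 whose symbol is Krt, a number and at most 1 further letter were taken, out of 21774 protein-coding genes with a transcription start site (TSS). Of the 53 genes, 27 lie in a cluster on chromosome 11 and 26 in a cluster on chromosome 15. The pseudogene Krt74 was left out.

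The series profiled chromatin by ATAC-seq, an assay that inserts sequencing adapters into open DNA with Tn5 transposase, in 6 mouse embryonic stem cell (mESC) samples of 3 conditions. The values below come from the untreated V6.5 mESCs (2 replicates), for which the authors deposited 1 joint list of 41014 peaks in mm10 coordinates. Cells carrying a ZBTB21 degron, sampled at 0 h and 6 h of IAA with 2 replicates each, were not analysed here. The joint list has no value per replicate, so no spread between replicates, no library depth and no test can be given, and all comparisons below are descriptions of this list.

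The labels describe V6.5 as an mESC line grown on irradiated mouse embryonic fibroblasts in serum with LIF, whereas the methods of the study name the inhibitors CHIR99021 and PD0325901 and no feeder layer. The treatment text that all labels carry is about doxycycline given to degron cells, while the treatment tag of these samples reads untreated. Fibroblast chromatin could therefore be present. Over all protein-coding genes, 29.8% had a listed peak within 1 kb of a TSS and 40.9% within 5 kb. Of 18 fibroblast marker genes, 3 had one within 1 kb (16.7%), with scores of 829 at Thy1, 687 at Pdgfra and 602 at Pdgfrb. Within 5 kb it was 5 (27.8%), and Lum lay 251.6 kb from the nearest peak. The fibroblast list was thus below the share over all genes at both distances. Of 17 pluripotency marker genes, 6 had a peak within 1 kb (35.3%), near the share over all genes, and 13 within 5 kb (76.5%), above it. Scores within 1 kb were 909 at Tbx3, 892 at Zfp42 and 861 at Pou5f1, while Klf4 lay 31.13 kb from the nearest peak. The part of feeder chromatin in the keratin values was not tested.

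Keratins are the intermediate filament proteins of epithelial cells. Filaments are built from pairs of an acidic type I and a basic to neutral type II keratin. In the mouse, type I genes are gathered on chromosome 11 and type II genes on chromosome 15, where the type I gene Krt18 sits beside its type II partner Krt8. Krt8, Krt18 and Krt19 belong to simple, one-layered epithelia, and Krt8 and Krt18 are among the earliest keratins of the embryo, made in the trophectoderm. Most other members serve the skin, the mucosa, the nail or the hair follicle, tissues that pluripotent cells have not formed.

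The promoters below show the contrast in the region where Krt8 and Krt18 lie. Each is the RefSeq sequence on GRCm38.p6 from 250 bases before to 30 bases after an annotated start, 5′ to 3′ on the strand of the gene, with CG dinucleotides and the letters TATAAA in capitals. Krt8 is on the minus strand at chr15:102004313-102004592, and all 280 bases lie inside a listed peak. Krt18 is on the plus strand at chr15:102027966-102028245, with 0 bases in a peak. Krt5, the main type II keratin of basal epidermis, is on the minus strand at chr15:101712876-101713155, with 0 bases in a peak. Krt10, the type I keratin of differentiating epidermis, is on the minus strand at chr11:99389335-99389614, with 86 bases in a peak. It was added after its values were seen. Krt19 and Krt1 are not among the 36 keratin genes with an entry in the promoter table used here.
Krt8: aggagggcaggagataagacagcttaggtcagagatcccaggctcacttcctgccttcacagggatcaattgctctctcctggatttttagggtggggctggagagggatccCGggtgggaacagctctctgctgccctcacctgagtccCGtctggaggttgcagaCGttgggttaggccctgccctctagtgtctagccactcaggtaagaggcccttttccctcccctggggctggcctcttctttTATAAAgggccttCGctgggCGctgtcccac
Krt18: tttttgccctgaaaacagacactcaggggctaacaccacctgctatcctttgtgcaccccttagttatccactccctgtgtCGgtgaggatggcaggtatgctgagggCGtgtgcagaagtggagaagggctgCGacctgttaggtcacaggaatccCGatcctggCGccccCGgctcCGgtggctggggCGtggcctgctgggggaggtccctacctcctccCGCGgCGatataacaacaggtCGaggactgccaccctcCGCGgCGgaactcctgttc
Krt5: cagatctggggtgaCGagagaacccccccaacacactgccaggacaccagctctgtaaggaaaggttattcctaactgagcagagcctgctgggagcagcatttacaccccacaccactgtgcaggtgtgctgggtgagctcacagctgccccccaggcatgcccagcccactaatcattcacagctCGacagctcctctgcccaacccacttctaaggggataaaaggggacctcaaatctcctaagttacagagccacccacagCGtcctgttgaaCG
Krt10: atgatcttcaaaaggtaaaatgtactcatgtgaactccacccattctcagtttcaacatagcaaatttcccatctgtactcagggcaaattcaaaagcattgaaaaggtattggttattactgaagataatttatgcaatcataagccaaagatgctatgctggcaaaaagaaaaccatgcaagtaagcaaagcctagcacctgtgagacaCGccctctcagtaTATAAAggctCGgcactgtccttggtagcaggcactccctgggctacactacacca
Krt8 held 5 CG dinucleotides and a GC content of 58.6%, against 15 and 61.4% at Krt18, 4 and 56.4% at Krt5, and 2 and 41.8% at Krt10. The letters TATAAA began 26 bases before the annotated start of Krt10 and 1 base before that of Krt8. The printed promoters of Krt18 and Krt5 hold no TATAAA. The accessible promoter of Krt8 is thus poorer in CG than that of its partner Krt18, which had no peak.

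Few keratin genes had a peak at their start. A listed peak lay within 1 kb of a TSS at 6 of 53 keratin genes (11.3%), against 29.8% of all protein-coding genes (6495 of 21774). Within 5 kb it was 8 of 53 (15.1%), against 40.9% of all genes (8909). The shares were alike in the clusters, with 3 of 27 (11.1%) and 4 of 27 (14.8%) at 1 and 5 kb on chromosome 11, and 3 of 26 (11.5%) and 4 of 26 (15.4%) on chromosome 15. All genes of chromosome 11 gave 34.6% and 48.8%, and those of chromosome 15 gave 31.9% and 46.8%, so the clusters lay below their own chromosomes too. The median distance from a TSS to the nearest peak was 24.56 kb for keratin genes, with a range from 0 to 148 kb, and 8.733 kb for all genes. It was 30.83 kb on chromosome 11 and 15.09 kb on chromosome 15. A gene with more TSSs has more chances of a nearby peak. The 21774 genes have 56206 TSSs, and 13 of the 53 keratin genes have more than 1. With only the most upstream TSS of each gene, 4 keratin genes had a peak within 1 kb, against 25.5% of all genes. Within 5 kb it was then 7, against 36.9%. For all genes no median distance with that setting is given here.

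The shortfall was near the starts. The keratin genes outnumbered the background in the bands from 5 to 10 kb (11 genes, 20.8%, against 11.6% of all genes), from 10 to 50 kb (20 genes, 37.7%, against 26.5%) and from 50 to 100 kb (8 genes, 15.1%, against 6.79%). Beyond 100 kb lay 6 keratin genes (11.3%), against 14.2% of all genes. These 6 are hair shaft keratins that lie side by side on chromosome 11. Several genes sat close to the 5 kb limit. Just inside it was Krt42 at 4744 bp, and just outside were Krt1 at 5190 bp, Krt16 at 5295 bp, Krt88 at 5310 bp, Krt9 at 5321 bp, Krt83 at 5608 bp and Krt17 at 5648 bp. At the 1 kb limit the gap was wide, from Krt80 at 407 bp to Krt7 at 2414 bp.

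**Figure D1:**
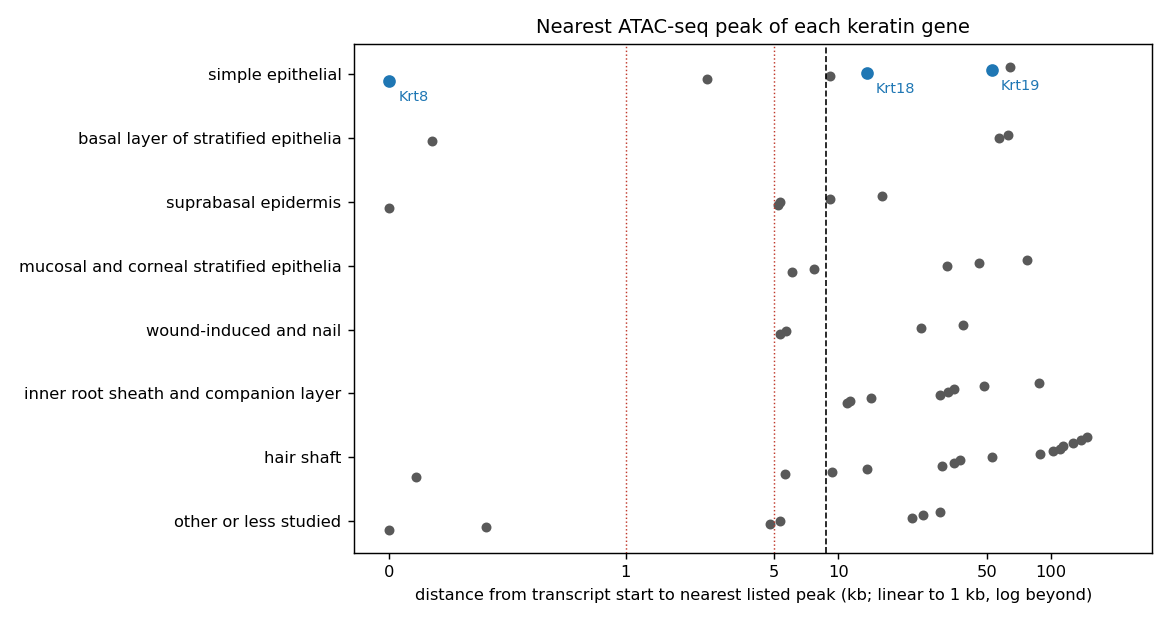
Distance from the nearest TSS of each of the 53 keratin genes to the nearest listed peak (x axis, kb, linear to 1 kb and logarithmic beyond), with the genes in rows by the tissue in which the keratin is best known. Blue points are Krt8, Krt18 and Krt19, the red dotted lines stand at 1 and 5 kb, and the black dashed line is the median of all protein-coding genes (8.733 kb). Only 6 points lie left of 1 kb, and no group of keratins lies there as a whole.

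Of the simple epithelial genes Krt8, Krt18 and Krt19, Krt8 alone had a peak. Its peak at chr15:102004272-102004724 was 453 bp wide, covered the start and part of the first exon, and had a score of 645. The score is the whole number deposited with each peak. Over the list it ran from 540 to 953, with a median of 696. In the list, 32.2% of peaks had a lower score than that of Krt8. The start of Krt18, 23.87 kb from that of Krt8 and pointing away from it, was 13.6 kb from its nearest peak. That peak lay between the genes, in an intron of the lncRNA Gm41404 and 9.87 kb from the start of Krt8, with a score of 546, higher than only 1.61% of the list. Krt19, a type I keratin (chr11:100140810-100145926), was 52.64 kb from its nearest peak, which had a score of 681.

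In counts, 1 of these 3 genes (33.3%) had a peak at either distance. Of the other 50 keratin genes, 5 had one within 1 kb (10%) and 7 within 5 kb (14%). Over all protein-coding genes the shares were 29.8% and 40.9%. The median distance was 13.6 kb for the 3 genes and 24.84 kb for the other 50. With 3 genes in a group, of which 1 has a peak, these shares do not set Krt8, Krt18 and Krt19 apart from the rest. Krt8 and Krt18, whose proteins pair with each other, were on opposite sides of the limit.

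The highest-scored peak of the chromosome 15 cluster, at chr15:101983950-101984685, lay inside the Krt78 gene beside Krt8. Its score was 865, above 96.3% of the list. Its nearest keratin TSS, 11.94 kb away, was the start of a predicted long transcript of Krt78, a keratin of stratified epithelia, and the peak lies in an intron of that transcript. It was 19.66 kb from the start of Krt8, 29.66 kb from the curated start of Krt78 and 43.53 kb from the start of Krt18. On the same side, peaks with scores of 753 and 662 lay 30.18 kb and 33.52 kb from the start of Krt8. On the other side of Krt18, the next peaks were 37.15 kb (score 722) and 50.91 kb (score 682) from its start, towards and within Eif4b, which encodes a translation initiation factor. The Krt8 and Krt18 genes thus stood with 2 peaks of low score between peaks of higher score.

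Besides Krt8, 5 keratin genes had a peak within 1 kb of a TSS. At Krt222, a little-studied gene at the edge of the chromosome 11 cluster, a peak of score 660 covered the start and coding sequence (chr11:99243795-99244636), and the lncRNA Gm32385 overlaps it. The nearest other protein-coding start, of the chromatin remodelling gene Smarce1, was 12.78 kb away. At Krt10, a peak of score 692 covered the curated start (chr11:99389073-99389420), and another of score 722 lay 2.598 kb away in a coding exon. The latter held 71 CG dinucleotides in 834 bp, with an observed/expected ratio of 0.951, the highest among the peaks of the clusters and their edges.

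At Krt86, a hair shaft keratin, a peak of score 656 lay 112 bp from the start (chr15:101473066-101473366), outside any gene. At Krt14, the type I partner of Krt5, a peak of score 574 lay in a coding exon (chr11:100205373-100205851), 179 bp from a start inside the gene and 1659 bp from the main, upstream start. At Krt80, a widely expressed keratin, a peak of score 548 lay in a coding exon 407 bp from the start and overlapped the miRNA gene Mir1941, and a peak of score 758 lay 4.835 kb away in an intron. The 6 peaks nearest to these starts had scores from 548 to 692, all below the list median of 696. At Krt222, Krt10, Krt14 and Krt80 the peak reached into coding sequence.

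Within 5 kb but not 1 kb were Krt7 and Krt42. At Krt7, a simple epithelial keratin also known from trophoblast, a peak of score 636 lay 2414 bp away in an intron, and another intronic peak of score 646 lay 12.37 kb from the start. Krt42, a little-studied gene at the end of the chromosome 11 cluster, had a peak of score 867 at 4744 bp (chr11:100274695-100275157). That peak lies outside the cluster and opens a run of 9 peaks with scores from 608 to 867 between Krt42 and the translation initiation gene Eif1, the nearer ones around the lncRNA Gm14206. Its score was the highest near any keratin start, since among the 8 genes the other best scores were between 574 and 758.

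By tissue, peaks at starts were scattered. Of the 6 simple epithelial keratins, 1 had a peak within 1 kb (16.7%) and 2 within 5 kb (33.3%), against 29.8% and 40.9% of all genes. Their median distance was 11.36 kb, where Krt20 stood at 9.122 kb and Krt23 at 64.09 kb. Of the 3 basal keratins, Krt14 had a peak, while Krt5 was 57.17 kb and Krt15 62.62 kb from the nearest. Of the 5 suprabasal keratins, Krt10 had a peak, Krt1 was 5190 bp from a peak of score 641 at the far end of its own gene, and the group median was 5.321 kb. Of the pairs that form the epidermal filaments, Krt14 and Krt10 thus had a peak at a start, and their type II partners Krt5 and Krt1 had none within 5 kb. For both Krt14 and Krt10 the start is not the most upstream one of the gene, and with that one alone neither had a peak within 1 kb. The start of Krt10 is its most upstream curated one, while that of Krt14 lies downstream of another curated start.

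No gene of the mucosal and corneal (5 genes, 6.038 to 77 kb), the wound-induced and nail (4 genes, 5.295 to 38.57 kb) or the inner root sheath and companion layer keratins (8 genes, 11.03 to 87.37 kb) had a peak within 5 kb. Of the 15 hair shaft keratins 1 had one (Krt86), with a median distance of 52.71 kb and the farthest gene of all, Krt31, at 148 kb. Of the 7 other or less studied genes, 2 had a peak within 1 kb (28.6%) and 3 within 5 kb (42.9%). These shares are near the 29.8% and 40.9% of all genes. The median distance of this group was 5.31 kb, against 8.733 kb for all genes. The keratin-associated protein (Krtap) genes, which encode the matrix between hair keratin filaments, also had few peaks. They were taken by symbols that begin with Krtap. This rule leaves out other genes of the cluster, such as Gm11563, whose start was 1.33 kb from a peak of score 686. Of the 23 Krtap genes inside the chromosome 11 cluster 0 had a peak within 5 kb, with distances from 5.356 to 121.5 kb, and of all 56 Krtap genes 1 had (1.79%), against 40.9% of all protein-coding genes and 15.1% of keratin genes.

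**Figure D2:**
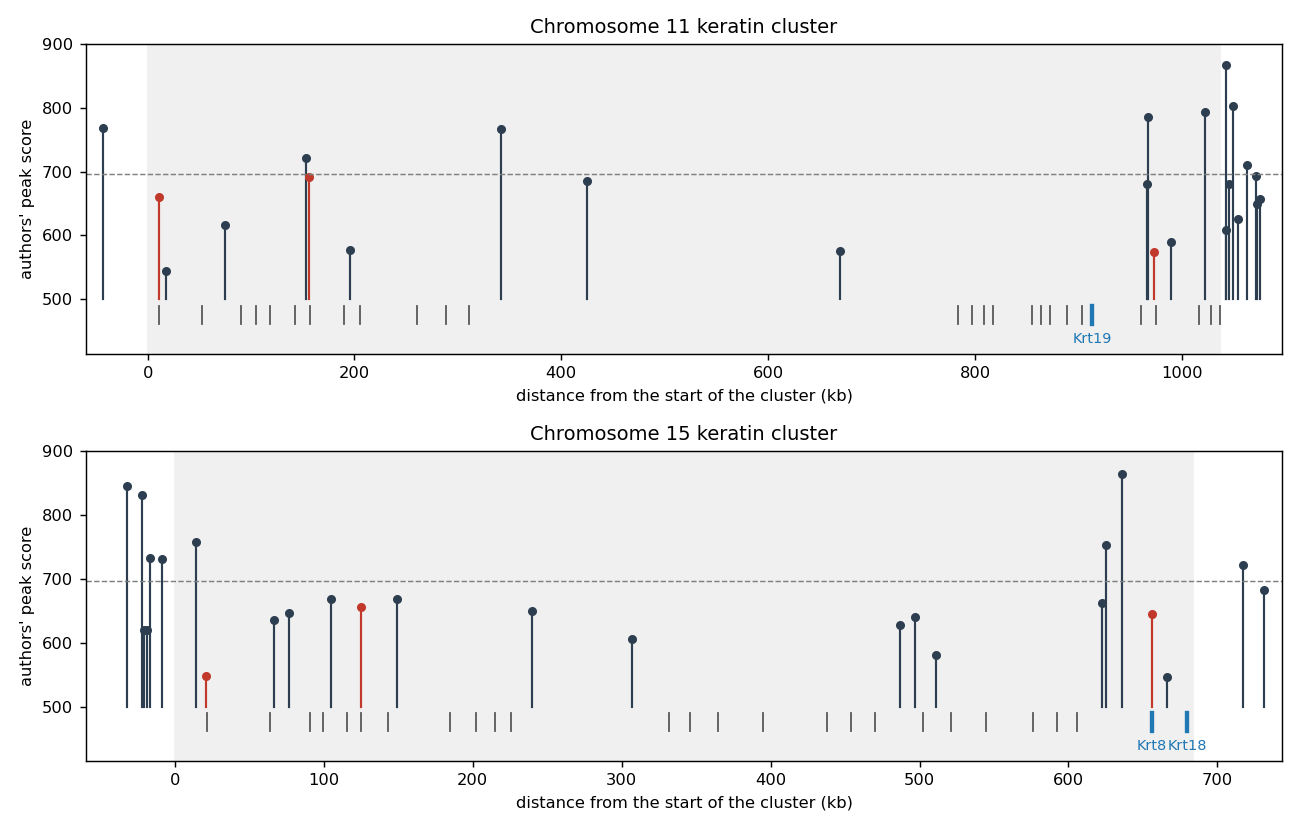
Listed peaks in and within 50 kb of the keratin clusters, placed by distance from the start of the cluster (x axis, kb) and by the score of the authors (y axis, drawn from 500 and not from 0). Stems are peaks, in red where a keratin TSS lies within 1 kb, ticks are keratin starts with Krt8, Krt18 and Krt19 in blue, the grey area is the cluster, and the dashed line is the list median of 696. The 9 peaks after the end of the chromosome 11 cluster stand in contrast to the empty 296 kb that hold Krt19.

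Taken from the outermost start to the outermost end of its keratin genes, the chromosome 11 cluster (chr11:99232761-100269951) spans 1037.2 kb. It held 14 peaks, or 13.5 per Mb, and 65 protein-coding genes, or 0.215 peaks per gene. The 500 kb before and after it held 30 and 29 peaks (60 and 58 per Mb), and the whole chromosome had 26.93 per Mb. The chromosome 15 cluster (chr15:101348315-102032026) spans 683.71 kb and held 17 peaks, or 24.86 per Mb. Its only protein-coding gene besides the 26 keratins is Gm5414, which gives 0.63 peaks per gene. The flanks of 500 kb held 29 and 35 peaks (58 and 70 per Mb), and the whole chromosome had 17.62 per Mb.

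Both clusters were therefore sparse beside their flanks, but only the one on chromosome 11 was sparse beside its chromosome and beside chromosomes 1 to 19 and X as a whole (16.01 per Mb). This difference depends on the setting. Widened by 50 kb on each side, the chromosome 11 cluster had 21.1 peaks per Mb, above 16.01, and with only peaks scored above the list median the chromosome 15 cluster had 4.388 per Mb, below the 7.968 of chromosomes 1 to 19 and X. Both had fewer peaks per gene than the 1.9 of these chromosomes. Among 2438 tiled windows of the length of the chromosome 11 cluster, 55.6% had as few peaks, and among 3688 windows of the length of the chromosome 15 cluster 75.2% had. Set beside 96 windows with as many protein-coding genes as the chromosome 15 cluster, 22 (22.9%) had as few peaks. Only 2 windows held as many genes as the chromosome 11 cluster, and 0 of these had as few peaks. GC content was 44.1% in the chromosome 11 cluster against 48.7% and 49.3% in its flanks, and 48.3% in the chromosome 15 cluster against 49.4% and 47.4%.

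**Figure D3:**
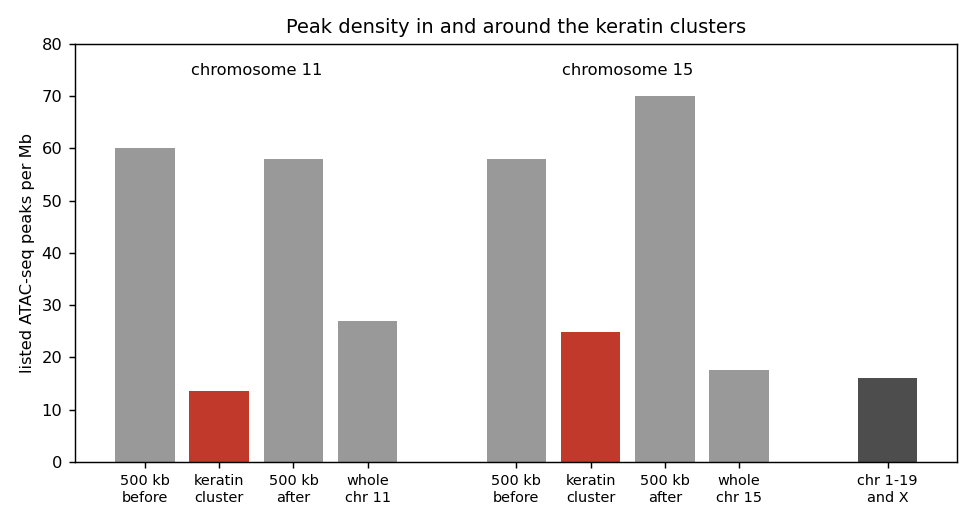
Listed peaks per Mb (y axis, from 0) in each keratin cluster (red), in the 500 kb on either side and on the whole chromosome (grey), and on chromosomes 1 to 19 and X (dark). Bars are counts from 1 joint list and carry no error. The clusters stand at 13.5 and 24.86 per Mb, between flanks of 58 to 70 per Mb.

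Peaks inside the clusters were spread unevenly. The longest stretch without a peak, chr11:99902565-100198566, runs over 296 kb and holds 11 keratin starts, those of the hair keratins Krt33a, Krt33b, Krt34, Krt31, Krt32, Krt35 and Krt36, then Krt13, Krt15, Krt19 and Krt9, besides 6 Krtap genes. Of the 40967 stretches between neighbouring peaks, 3.62% were as long, and the median was 19.87 kb. The next one on chromosome 11 (244.5 kb) holds 6 Krtap genes and 0 keratins. On chromosome 15 the longest ran over 179.2 kb with 7 starts, those of Krt6b, Krt6a, Krt5, Krt71, Krt72, Krt73 and Krt2, and 6.69% of all stretches were as long. Krt20, Krt23, Krt39 and Krt40 shared a stretch of 145 kb, and Krt77, Krt76, Krt4 and Krt79 shared 110 kb. Krt18 lay in 50.75 kb, a length that 25.2% of stretches reach, so its surroundings were less empty than those of Krt19. These shares count stretches and not bases. Long stretches take up a larger part of the genome than of the count, so the shares do not say how rare such a position is.

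The peaks within the clusters had low scores. The 31 peaks had a median score of 649 (670.5 on chromosome 11, 646 on chromosome 15), against 696 for the list. Above the list median were 7 of them (22.6%), 4 on chromosome 11 and 3 on chromosome 15, against 49.8% of all peaks. The peaks above it were those at 722 in Krt10, 767 near Krtap1-5, 786 between Krt9 and Krt14 and 793 between Krt16 and Krt17, and those at 758 in Krt80 and at 753 and 865 in the predicted Krt78 transcript. None of the 7 was within 1 kb of a keratin TSS.

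Of the 31 peaks, 10 overlapped an exon of a protein-coding gene, 6 lay in an intron, 3 lay in a noncoding gene or pseudogene and 12 were intergenic. In an exon lay the widest peak, of 1621 bp at chr15:101858859-101860479, in Krt77, a suprabasal keratin, with a score of 580 and 55 CG dinucleotides. Peaks also lay in exons of Krt1 (641), Krt20 (578) and Krt88 (669), each over 5 kb from a keratin TSS. The median width was 479 bp, with a range from 286 to 1621 bp, against 547 bp for the list. The share within 1 kb of any protein-coding TSS was 19.4% in the clusters (6 peaks) and 16% over the list. Starts are denser in the clusters, which hold 65 and 27 protein-coding genes in 1037.2 and 683.71 kb. Chromosomes 1 to 19 and X hold 21521 in 2559397 kb. The like shares therefore do not show that cluster peaks favour starts as much as listed peaks do. GC content (53.2% against 52.1%) and the share of repeat bases (medians of 9.35% and 10.9%) were close to those of the list.

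**Figure D4:**
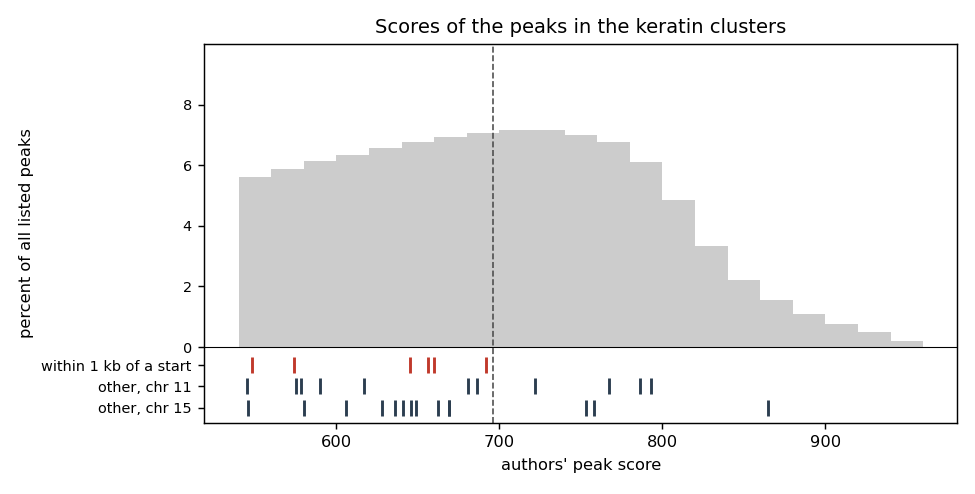
Scores of all listed peaks as a histogram (upper panel, percent of all peaks) and of the 31 peaks in the keratin clusters as ticks, in rows for the 6 peaks within 1 kb of a keratin TSS (red) and the others on chromosomes 11 and 15 (dark). The dashed line is the list median of 696. All red ticks stand left of it, between 548 and 692.

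The non-keratin starts nearest to these peaks were mostly far away. Gm11563 was 1.33 kb from a peak of score 686, Krtap31-1 was 5.356 kb from a peak of score 575, and Krtap1-5 was 6.56 kb from the peak of score 767. For the other peaks of the clusters the distance was at least 12.78 kb, with Smarce1, Krtap3-3, Eif1, Smim41, Gm5414 or Eif4b as the nearest. At the edges, 1 peak (score 769) lay before the chromosome 11 cluster, 33.9 kb from Ccr7, a chemokine receptor gene. Before the chromosome 15 cluster lay 6 peaks with scores from 620 to 845, 22.51 to 46.23 kb from Smim41.

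To show what the highest-scored peak of each cluster holds, its central 300 bases are given on the plus strand of GRCm38.p6, with the letters that matched a searched motif in capitals. The chromosome 11 peak (score 793) lies between Krt16 and Krt17, keratins of wounds and of nail, at chr11:100254505-100254804 and 5.295 kb from the start of Krt16. The chromosome 15 peak (score 865) is the one in the predicted Krt78 transcript, at chr15:101984168-101984467.
Peak between Krt16 and Krt17: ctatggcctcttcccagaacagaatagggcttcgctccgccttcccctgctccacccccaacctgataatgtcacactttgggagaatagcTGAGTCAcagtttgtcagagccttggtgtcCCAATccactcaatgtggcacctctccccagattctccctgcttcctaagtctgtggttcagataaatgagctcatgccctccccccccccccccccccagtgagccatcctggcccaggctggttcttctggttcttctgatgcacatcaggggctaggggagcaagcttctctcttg
Peak in Krt78: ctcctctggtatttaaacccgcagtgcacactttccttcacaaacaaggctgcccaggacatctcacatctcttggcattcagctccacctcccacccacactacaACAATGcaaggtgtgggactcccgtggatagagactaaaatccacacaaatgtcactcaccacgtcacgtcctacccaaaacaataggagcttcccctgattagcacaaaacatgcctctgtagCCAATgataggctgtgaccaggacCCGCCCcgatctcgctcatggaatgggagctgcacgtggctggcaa
The capitals in the chromosome 11 peak are TGANTCA, the letters of the AP-1 factors, and CCAAT. Those in the chromosome 15 peak are ACAATG, a core bound by Sox factors, CCAAT, and GGGCGG on the other strand, the GC box of Sp and Klf factors. These are matches of letters, and binding was not measured.

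The letters of 8 motifs were searched on both strands in the promoters, from 250 bases before to 50 after a start, of the 53 keratin genes and of all 21774 genes. TATAAA was in 27 keratin promoters (50.9%), against 13.1% of all, and in the 50 to 11 bases before the start in 21 (39.6%), against 3.92%. GGGCGG was in 8 (15.1%), against 46.6%. CCAAT was in 22 (41.5%) against 38.7%, TGANTCA in 4 (7.55%) against 6.75%, the octamer ATGCAAA in 2 (3.77%) against 4.16%, ACAATG in 8 (15.1%) against 10.8%, CACACCC in 6 (11.3%) against 8.11%, and the Tead letters ACATTCC in 0 against 3.33%. TATAAA was thus more frequent and the GC box less frequent in keratin promoters than over all promoters, and the other letters were nearer to the background. Paralogous genes share sequence, so these counts are not independent.

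In the central 300 bases of the 31 cluster peaks the shares were nearer to those of the list. TATAAA was in 4 (12.9%), against 8.52% of 41000 peaks on chromosomes 1 to 19, X and Y. GGGCGG was in 7 (22.6%) against 22.3%, CCAAT in 12 (38.7%) against 33.2%, TGANTCA in 5 (16.1%) against 11.3%, ATGCAAA in 2 (6.45%) against 6.71%, ACAATG in 4 (12.9%) against 15.1%, CACACCC in 4 (12.9%) against 13.8% and ACATTCC in 0 against 6.49%. For TATAAA, the excess over the background was thus much smaller among the peaks than among the promoters. Promoter windows are placed at starts and peak windows at midpoints, and only 6 of the 31 peaks lay within 1 kb of a protein-coding TSS. These excesses are therefore not like measures.

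CpG dinucleotides, which many broadly active promoters keep in large numbers, were rare in keratin promoters. The median observed/expected CpG ratio was 0.28 against 0.575 for all genes, with a median GC content of 50% against 56.3%. Taking promoters below a ratio of 0.4 as CpG-poor, and those of at least 0.6 with a GC content of at least 50% as CpG-rich, 41 keratin promoters (77.4%) were CpG-poor, 9 intermediate and 3 CpG-rich (Krt7, Krt87 and Krt18). Of all genes 38.8% were CpG-poor and 45.3% CpG-rich.

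Within the CpG-poor class the keratin genes were close to the background at 1 kb and below it at 5 kb. A peak lay within 1 kb at 5 of 41 CpG-poor keratin genes (12.2%), against 14.5% of the 8457 CpG-poor genes. Within 5 kb the shares were 14.6% and 25.2%. Of the 9 intermediate genes 1 had a peak within 1 kb (11.1%), against 40.2%. This gene is Krt14, and its class is that of its upstream start, 1659 bp from the peak, and not of the inner start beside the peak. Of the 3 CpG-rich genes 0 had a peak within 1 kb, against 39.3% of 9864. The ratio was 0.603 at Krt18, 0.353 at Krt19 and 0.238 at Krt8, so that Krt8, the gene with a peak, had the lowest of the 3. The part of CpG content in the low count of keratin genes with a peak was not tested.

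**Figure D5:**
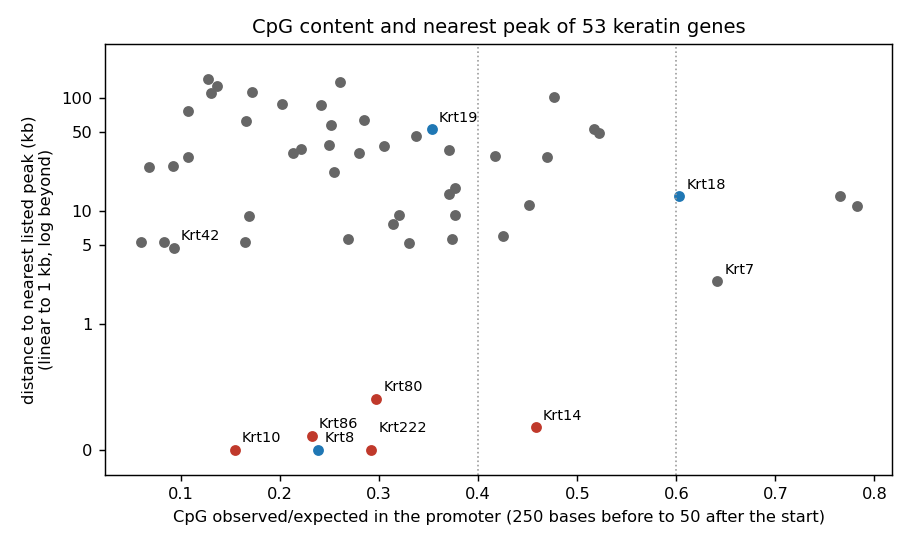
Observed/expected CpG ratio of the promoter (x axis) against the distance from the nearest TSS to the nearest listed peak (y axis, kb, linear to 1 kb and logarithmic beyond) for the 53 keratin genes. Blue points are Krt8, Krt18 and Krt19, red points are the other genes with a peak within 1 kb, and dotted lines stand at ratios of 0.4 and 0.6. The ratio is that of the most upstream curated start, which for some genes, such as Krt14, is not the TSS nearest to a peak. The genes with a peak within 1 kb lie at ratios from 0.154 (Krt10) to 0.458 (Krt14), and none of the genes above 0.6 is among them.

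Reads from recently duplicated genes can map to several places. How ATAC-seq reads of this kind were treated is not given in the sources used here. For ChIP-seq the study kept only reads that mapped uniquely and concordantly. Words of 50 bases that occur more than 1 time in the genome, on either strand, made up 8.31% of the chromosome 11 and 5.68% of the chromosome 15 cluster, against 2.72% to 4.54% in the flanks. Within 1 kb of a keratin start the median share was 0.564%, with 23 genes at 0 and 39 under 5%. It was over 20% at Krt16, Krt81, Krt86, Krt6b and Krt6a, with a highest value of 29.8%, and of these Krt86 had a peak. It was 10.9% at Krt8 and 9.84% at Krt5. The part of such words in the missing peaks was not tested.

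Other lists of epithelial genes are set beside the shares over all genes, 29.8% within 1 kb and 40.9% within 5 kb. Desmosomal plaque proteins and plakins include proteins that anchor keratin filaments. Of 12 of their genes, 7 had a peak within 1 kb (58.3%), among them Eppk1 with 903 and Plec with 873. Within 5 kb it was the same 7 (58.3%). The other 5 had none within 5 kb, with Dsp 5.699 kb and Ppl 42.85 kb from the nearest. At both distances the list was above the share over all genes. Of 13 epithelial adhesion genes 7 had one within 1 kb (53.8%) and 9 within 5 kb (69.2%), also above it, with 880 at Cldn3, 850 at Esrp2 and 570 at Cldn6, while Itgb4 lay 17.93 kb off. Of 22 genes for transcription factors of epithelia 6 had one within 1 kb (27.3%) and 8 within 5 kb (36.4%), somewhat below it, among them Tfap2a (805), Elf3 (772) and Junb (634), and not Klf4 (31.13 kb).

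Of 16 other intermediate filament genes, 4 had a peak within 1 kb (25%) and 9 within 5 kb (56.2%). They include Lmna, the lamin A gene, with 825, Prph with 758 and Vim, the mesenchymal filament gene, with 613, while Synm lay 36.73 kb from the nearest. Among gene families that also form clusters or large groups, collagen genes had a peak within 1 kb at 12 of 44 (27.3%) and within 5 kb at 18 (40.9%). Hox genes had 6 of 39 (15.4%) and 18 of 39 (46.2%). At 1 kb the keratins (11.3%) were thus near the Hox genes, and at 5 kb (15.1%) they were below both families.

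Cell types that may arise beside mESCs in culture express Krt8, Krt18 or Krt7, so their markers were counted over the same list. Of 10 trophoblast marker genes, 3 had a peak within 1 kb (30%, against 29.8% of all genes). Their scores were 657 at Gata3, 651 at Tfap2c and 597 at Ascl2. Within 5 kb it was 6 (60%, against 40.9%). Krt7 is among these 6 by its peak of score 636 given above, so this count is not independent of the keratin counts. The other 4 had none within 5 kb, and Gata2 lay 80.34 kb from the nearest. Of 10 primitive endoderm marker genes 2 had a peak within 1 kb (20%), at Lama1 with 774 and Pdgfra with 687, and 3 within 5 kb (30%), both shares below those of all genes. Gata6 and Sox17 were 42.75 kb and 46.47 kb from the nearest. In a pool of cells, fewer open cells and less open chromatin per cell cannot be told apart, and the part of these cell types in the peak of Krt8 was not tested.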

How the data were processed

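ATAC-seq peaks of untreated V6.5 mESCs were used as the authors deposited them, with mm10 coordinates and a score per peak, and strand for 0 peaks. The submitters' processing notes name cutadapt 2.6, Bowtie2 2.3.5.1 and MACS2 2.1.1, with no roles or settings. The peak threshold, the joining of the 2 replicates and any shift of cut sites for Tn5 are not given in the sources used here for ATAC-seq. For ChIP-seq the study used an IDR threshold of 0.05. The list gives no depth.

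TSSs were the starts of all RefSeq mRNAs on GRCm38.p6 (the assembly mm10 names; 0 peaks ended beyond their chromosome). A gene had a peak when at least 1 bp of it lay within 1 or 5 kb of any of its TSSs, and each cluster spans its outermost keratin genes. No test was made, since 1 joint list has no replicates. The counting was tested on 20 simulated lists. Python 3.11.15, numpy 2.4.6, pysam 0.24.0 and matplotlib 3.10.9 were used.

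The members, gene lists, motifs and tissue groups were chosen with earlier results of these data known. Named were Krt8, Krt18, Krt19, each keratin gene with a peak within 5 kb, Krt5, Krt14, Krt1 and Krt10, the non-keratin starts nearest to cluster peaks, and at most 4 genes of each other list. Other keratin genes were named, and Krt88 was placed in its group, after their values were seen. Alternatives were a score above the median, peak midpoints, merging of peaks within 500 bp, the most upstream TSS only, curated mRNAs only, windows of 2.5 and 10 kb, and clusters widened by 50 kb.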

Additional observations from a re-analysis of the deposited data

How the results depend on the processing

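Of 57 alternatives over 11 counts, distances and densities, 41 stayed within 1.5 times the value given above, 11 were lower and 5 higher by more. Peak midpoints, merging, curated mRNAs and the 2.5 kb window moved none by that much. When peaks at or below the median score were dropped, 0 keratin genes had a peak within 1 kb, thus 0 of Krt8, Krt18 and Krt19 and 0 of the others, against 19.4% of all genes. Within 5 kb it was 3 keratin genes (Krt10, Krt42 and Krt80), all 3 among the others, and again 0 of Krt8, Krt18 and Krt19, against 26.8% of all genes. The median distance was then 80.65 kb, and the clusters held 4 and 3 peaks (3.857 and 4.388 per Mb on chromosomes 11 and 15, against 7.968 on chromosomes 1 to 19 and X), so that both were below that density. With the most upstream TSS alone, 3 of the other keratin genes had a peak within 1 kb, against 25.5% of all genes, and Krt10 and Krt14 were the genes lost. A window of 10 kb in place of 5 kb gave 19 keratin genes, 18 of them among the others, against 52.5% of all genes. Widened by 50 kb, the chromosome 11 cluster held 24 peaks, or 21.1 per Mb, against 16.01 for chromosomes 1 to 19 and X, so its place below that density depends on where its edge is drawn.

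No paired analysis was possible because the list joins both replicates and has no value per replicate, so leaving out a replicate gave no value. A missing peak says only that none passed the authors' threshold. Scores order peaks within this list and are not amounts of accessible DNA.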
